A study of Saccharomyces cerevisiae with 6 samples.

Results

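The 10 genes described here encode the enzymes of lower glycolysis in budding yeast, from fructose-bisphosphate aldolase to pyruvate kinase. They are *FBA1* (YKL060C), *TPI1* (YDR050C), *TDH1* (YJL052W), *TDH2* (YJR009C), *TDH3* (YGR192C), *PGK1* (YCR012W), *GPM1* (YKL152C), *ENO1* (YGR254W), *ENO2* (YHR174W) and *CDC19* (YAL038W). They were chosen by their systematic names among the 7445 features of the count table, and all 10 passed the expression filter. RNA was sequenced from 3 auxin-treated and 3 mock-treated cultures of strain PDW2798, which was grown at 25 °C in YPDA, a rich medium with glucose. The auxin-treated group received 500 µM auxin for 1 h, although the study's methods describe a lower dose for the later part of that hour. A protocol field of the sample labels names auxin for all 6 cultures, and the groups were taken from the treatment field. All 6 cultures have the W303 background and the same genotype. Its *RIO1-AID::KanMX4* allele adds an auxin-inducible degron to Rio1, and its *PADH1-OsTIR1-9myc::URA3* transgene makes OsTir1, the plant protein that recognises the degron once auxin is present, from the *ADH1* promoter. A strain without the degron is not analysed here, so a response to auxin itself and one to the loss of Rio1 cannot be told apart.

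Lower glycolysis begins when aldolase splits fructose bisphosphate into a pair of triose phosphates. Triose phosphate isomerase interconverts these, and the later enzymes oxidise glyceraldehyde phosphate to pyruvate and make the pathway's net ATP. On glucose, budding yeast ferments most of its sugar through this route, and the mRNAs of its main isoenzymes are among the most abundant of the cell. Their promoters are known for binding Rap1, a general regulatory factor, and Gcr1, the main activator of glycolytic genes, which works with Gcr2. Tye7 is a further activator of several of them.

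Each culture gave 110119744 to 125303818 counts over all genes. Levels are given as counts per 1000000 (CPM) after scaling with edgeR's TMM method, whose factors lay between 1.086 and 1.093 in the auxin-treated and between 0.902 and 0.928 in the mock-treated cultures. CPM measure a gene's part of the sequenced RNA, so that less of its own RNA and more of other RNA cannot be told apart. A change in the total RNA per cell cannot be seen in them. The differences come from edgeR's quasi-likelihood test over 6397 features with Benjamini-Hochberg adjustment and are log2 fold changes of auxin-treated over mock-treated cultures with their standard error (SE). A gene was called at an adjusted p of at most 0.05. The variation between replicate cultures beyond counting error was 3.78% for a typical gene. The *RIO1* mRNA had 40.9, 39.4 and 42.7 CPM in the auxin-treated cultures, against 19.8, 21.9 and 22.8 CPM in the mock-treated cultures. The degron acts on the protein, so this mRNA is no check of the depletion.

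All 10 genes of lower glycolysis were called as lower in the auxin-treated than in the mock-treated cultures. Of all tested features, 38.5% were called as lower and 77.0% were called in either direction. In each of the 10, every auxin-treated culture lay below every mock-treated one, which was the case for 39.3% of all tested features. The log2 fold changes ranged from -1.85 for *TDH1* to -0.39 for *TDH3*, with a median of -0.59, against 0.00013 for all tested features. Only *TDH1* and *ENO1* also passed a log2 fold change of -1, which 2.55% of all tested features passed with a called decrease. The summed level of the 10 genes was 70855, 71237 and 71889 CPM in the auxin-treated cultures, against 101204, 107009 and 100023 CPM in the mock-treated cultures. The ratio of the means was 0.694 (two-sided exact permutation p = 0.1, the lowest value possible with 3 cultures in each group). This sum mostly reflects *TDH3*, *CDC19*, *ENO2* and *FBA1*. Before any scaling between cultures, the 10 genes took 7.77% ± 0.0531 of all counts in the auxin-treated cultures and 9.43% ± 0.206 in the mock-treated cultures (SD, n = 3 each, exact permutation p = 0.1, two-sided). The sum and the 4 shares reported here make a family of 5 such tests, and the adjusted p of each was 0.1.

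**Figure D1:**
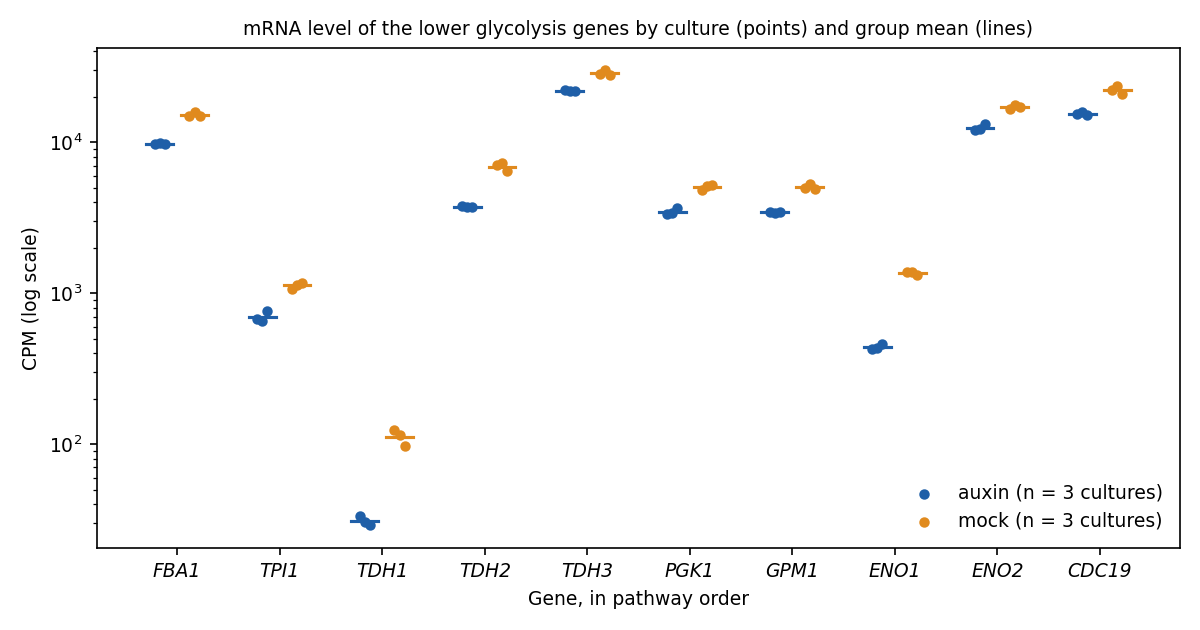
CPM of each gene (vertical axis, log scale) in the 3 auxin-treated cultures (blue, left of each pair) and the 3 mock-treated cultures (orange), with a line at the group mean. The groups are apart for all 10 genes, and the gap is widest for *TDH1*, with means of 30.9 and 112 CPM, and *ENO1*, with means of 440.0 and 1359 CPM.

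The scaling bears on the size of these decreases. With total counts alone, the median of all tested features rose to 0.25 on the log2 scale, and the log2 fold changes of the 10 genes moved up by a like amount. All 10 were still called as lower, as were 1072 of the 6397 tested features. The values of the 10 ran from -1.60 for *TDH1* to -0.14 for *TDH3*, whose adjusted p of 0.00024 in edgeR's test was the highest. The plot of fold changes under both scalings shows these values side by side.

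**Figure D2:**
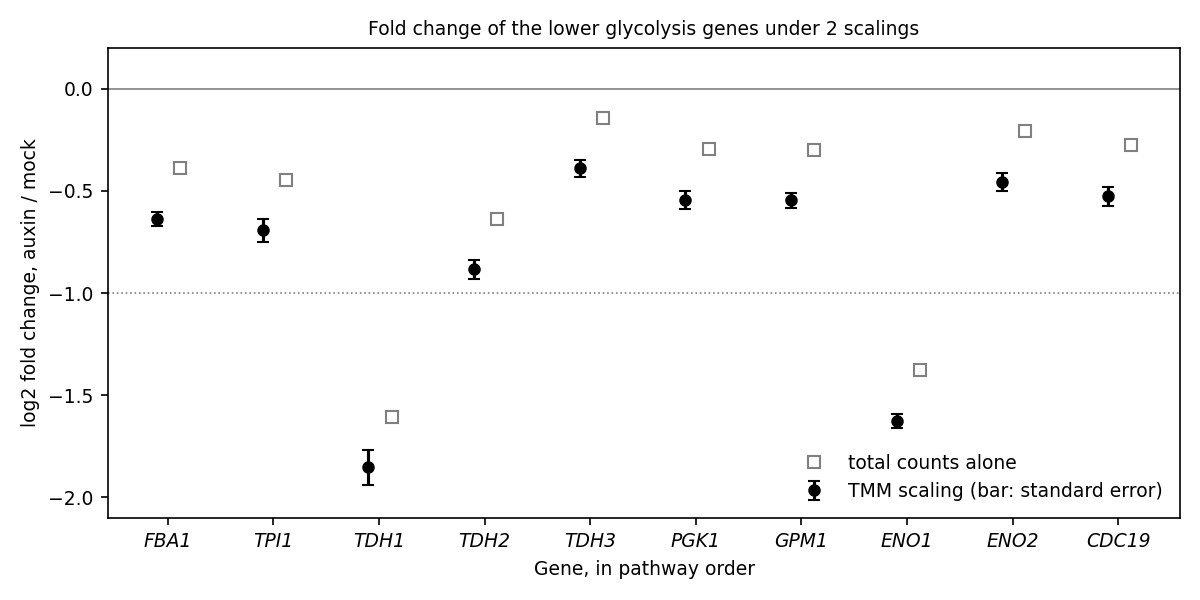
Log2 fold change of auxin-treated over mock-treated cultures (vertical axis) for each gene in pathway order, with TMM scaling (filled circles, bars: standard error) and with total counts alone (open squares). Every value lies below 0 under both scalings, and only *TDH1* and *ENO1* lie below the dotted line at -1.

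Aldolase and triose phosphate isomerase catalyse the first steps of this part of the pathway, and each is encoded by a single gene. *FBA1* (chromosome XI from 326408 to 327487 of R64, minus strand), the aldolase gene, had 9727, 9834 and 9740 CPM in the auxin-treated cultures, against 14946, 15758 and 14870 CPM in the mock-treated cultures. The auxin-treated cultures lay close together and well below the others. Its log2 fold change was -0.64 (SE 0.04, edgeR adjusted p = 1.7e-07), or -0.39 with total counts alone. *TPI1* (chromosome IV from 555726 to 556472, minus strand), which encodes the isomerase, had 671, 658 and 757 CPM in the auxin-treated cultures, against 1066, 1131 and 1175 CPM in the mock-treated cultures. Among the auxin-treated cultures replicate 3 was the highest, and among the mock-treated ones it was also replicate 3. The log2 fold change was -0.69 (SE 0.05, edgeR adjusted p = 1.9e-06), or -0.45 with total counts alone.

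The next step, the oxidation of glyceraldehyde phosphate, is catalysed by glyceraldehyde phosphate dehydrogenase (GAPDH), for which yeast has 3 genes. *TDH3* (chromosome VII from 882812 to 883810, minus strand) encodes the main isoenzyme and had the highest level of all tested features. It had 22024, 21768 and 21925 CPM in the auxin-treated cultures, against 28210, 29866 and 28053 CPM in the mock-treated cultures. The groups were apart, but the decrease was the smallest of the 10, at a log2 fold change of -0.39 (SE 0.04, edgeR adjusted p = 1.2e-05). *TDH2* (chromosome X from 453683 to 454681, minus strand) had 3768, 3743 and 3705 CPM in the auxin-treated cultures, against 7038, 7263 and 6404 CPM in the mock-treated cultures. Its log2 fold change was -0.88 (SE 0.05, edgeR adjusted p = 9.2e-08). *TDH1* (chromosome X from 338271 to 339269, plus strand), the isoenzyme known for being expressed as cells enter stationary phase, had 33.2, 30.6 and 29.0 CPM in the auxin-treated cultures. The mock-treated cultures had 124, 115 and 96.7 CPM of *TDH1*, and differed more among themselves than for any other of the 10 genes, with a coefficient of variation of 12.3%. The log2 fold change of *TDH1* was -1.85 (SE 0.08, edgeR adjusted p = 4.1e-08), the 11th lowest of the 6397 tested features.

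The GAPDH genes therefore changed unequally, which can be read within each culture and without any scaling. *TDH1* made up 0.128%, 0.120% and 0.113% of the counts of the 3 GAPDH genes in the auxin-treated cultures, against 0.350%, 0.308% and 0.280% in the mock-treated cultures. The share of *TDH2* was 14.6%, 14.7% and 14.4% in the auxin-treated cultures, against 19.9%, 19.5% and 18.5% in the mock-treated cultures. *TDH3* made up the rest, with means of 85.3% and 80.4%. For both *TDH1* and *TDH2* the groups did not overlap, and the exact permutation test gave the smallest p it allows, 0.1 (two-sided).

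The coding sequences of these genes are close copies, which limits how their reads can be told apart. *TDH2* and *TDH3* differ at 42 of 999 bases and share a stretch of 173 bases without a difference, whereas *TDH1* differs from *TDH3* at 111 bases. STAR's gene counts leave out reads that align equally well to several places. Of the 100-base windows of the coding sequence, the length of a read, 87.2% occur once in the genome for *TDH2*, 91.8% for *TDH3* and 95.4% for *TDH1*. Their levels, shares and fold changes are uncertain for this reason. The libraries were sequenced as read pairs, so these percentages of single windows do not measure the part of the pairs left out. The effect of differences between W303 and the reference strain was not tested. The 60 coding bases in which *TDH2* and *TDH3* differ most, bases 64 to 123, show how reads are assigned, and capitals mark where a gene differs from *TDH3* (17 bases in *TDH1* and 12 in *TDH2*). They lie on chromosome X from 338334 to 338393 for *TDH1*, on chromosome X from 454559 to 454618 for *TDH2* and on chromosome VII from 883688 to 883747 for *TDH3*, and are given from 5′ to 3′ of the coding strand.
TDH1: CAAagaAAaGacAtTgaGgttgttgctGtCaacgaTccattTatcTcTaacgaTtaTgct
TDH2: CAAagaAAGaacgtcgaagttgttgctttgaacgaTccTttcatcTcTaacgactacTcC
TDH3: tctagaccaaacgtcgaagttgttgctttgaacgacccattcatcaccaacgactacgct

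**Figure D3:**
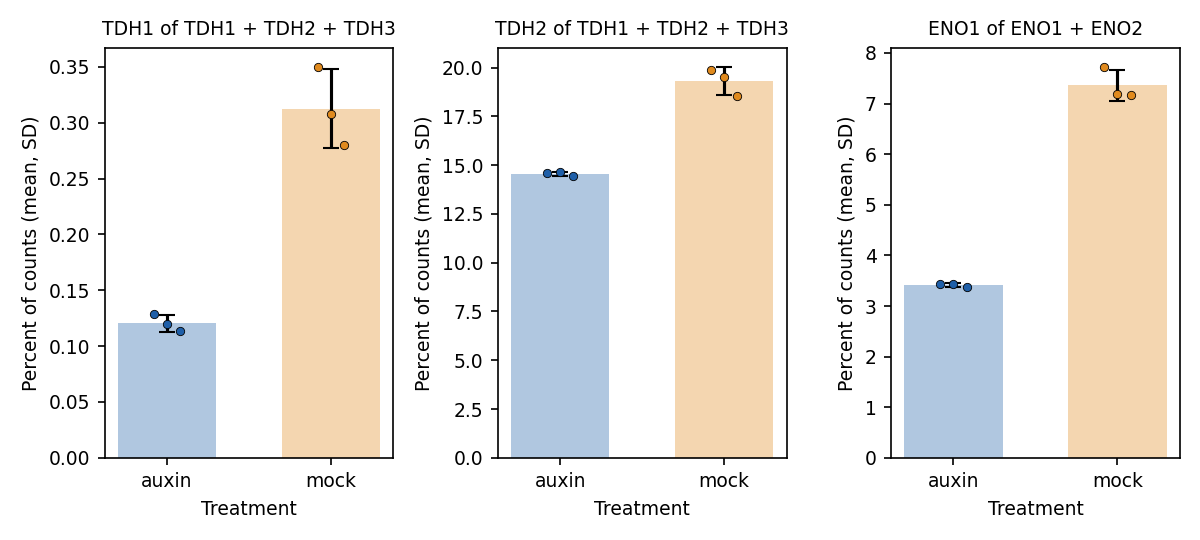
Share of the counts (percent, vertical axis) that *TDH1* and *TDH2* took of the 3 GAPDH genes, and that *ENO1* took of both enolase genes, in auxin-treated (blue) and mock-treated (orange) cultures. Bars are means, error bars the SD and points the 3 cultures of a group. All 3 shares were lower in every auxin-treated culture, at means of 0.120%, 14.6% and 3.41%, against 0.313%, 19.3% and 7.36% in the mock-treated cultures.

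Phosphoglycerate kinase, which makes the first ATP of this route, and phosphoglycerate mutase follow. *PGK1* (chromosome III from 137746 to 138996, plus strand) encodes the kinase, whose protein the study used as a loading control on western blots. It had 3349, 3382 and 3661 CPM in the auxin-treated cultures, against 4844, 5107 and 5201 CPM in the mock-treated cultures. The log2 fold change was -0.54 (SE 0.04, edgeR adjusted p = 1.8e-06), or -0.30 with total counts alone. The values are those of the mRNA only. *GPM1* (chromosome XI from 163642 to 164385, minus strand), the main mutase gene, had 3469, 3413 and 3454 CPM in the auxin-treated cultures, against 4970, 5264 and 4870 CPM in the mock-treated cultures. Its log2 fold change was -0.55 (SE 0.03, edgeR adjusted p = 3.9e-07), or -0.30 with total counts alone, close to the values of *PGK1*.

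Enolase, which forms phosphoenolpyruvate, is encoded by *ENO1* and *ENO2*. *ENO2* (chromosome VIII from 451327 to 452640, plus strand), the isoenzyme that predominates on glucose, had 12092, 12201 and 13117 CPM in the auxin-treated cultures, against 16543, 17737 and 17081 CPM in the mock-treated cultures. Its log2 fold change was -0.46 (SE 0.04, edgeR adjusted p = 8.6e-06), or -0.21 with total counts alone. *ENO1* (chromosome VII from 1000927 to 1002240, plus strand) had 429, 433 and 457 CPM in the auxin-treated cultures, against 1383, 1374 and 1319 CPM in the mock-treated cultures. The auxin-treated cultures held 32.4% of the mean of the mock-treated ones. The log2 fold change of *ENO1* was -1.63 (SE 0.03, edgeR adjusted p = 7.6e-10), the 24th lowest of all tested features. Within each culture, *ENO1* made up 3.43%, 3.43% and 3.37% of the enolase counts in the auxin-treated cultures, against 7.72%, 7.19% and 7.17% in the mock-treated cultures (exact permutation p = 0.1, two-sided).

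The enolase genes differ at 68 of 1314 coding bases, and 97.3% of the 100-base windows of either occur once in the genome, so that few of their reads cannot be told apart. Their most different 60 bases, coding bases 340 to 399, are given below the same way, with capitals where *ENO1* differs from *ENO2*, at 13 bases. They lie on chromosome VII from 1001266 to 1001325 and on chromosome VIII from 451666 to 451725.
ENO1: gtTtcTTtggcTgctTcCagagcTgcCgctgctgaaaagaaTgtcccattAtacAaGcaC
ENO2: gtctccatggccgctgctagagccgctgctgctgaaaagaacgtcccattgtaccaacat

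Pyruvate kinase makes the last ATP of the route. *CDC19* (chromosome I from 71786 to 73288, plus strand), which encodes the isoenzyme used on glucose, had 15292, 15775 and 15043 CPM in the auxin-treated cultures, against 22080.4, 23394 and 20953 CPM in the mock-treated cultures. Its log2 fold change was -0.53 (SE 0.05, edgeR adjusted p = 4.3e-06), or -0.28 with total counts alone. None of the 10 genes overlaps another gene of the reference annotation, and each has a single coding exon. Overlap with features of the annotation used for the counts, which may differ, was not tested.

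Levels of different genes were compared per kilobase of coding length. In the auxin-treated cultures the order was *TDH3*, *CDC19*, *ENO2*, *FBA1*, *GPM1*, *TDH2*, *PGK1*, *TPI1*, *ENO1* and *TDH1*, with mean levels from 21927 to 31.0 CPM per kilobase. The ranges over the 3 auxin-treated cultures did not overlap between any neighbours in this order. In the mock-treated cultures the mean levels ran from 28738 CPM per kilobase for *TDH3* to 112 for *TDH1*, and a pair of neighbours changed places in the order at 2 points. *ENO2* stood above *FBA1* in the auxin-treated cultures, at means of 9490 and 9044 CPM per kilobase, and below it in the mock-treated cultures, at 13029 and 14066. *GPM1* stood above *TDH2* in the auxin-treated cultures, at 4631 and 3742 CPM per kilobase, and next to it in the mock-treated cultures, at 6767 and 6909, where their ranges overlapped. The ranges of *CDC19* and *FBA1* also overlapped in the mock-treated cultures. Of the 100-base windows, 87.2% occur once in the genome for *TDH2* and 100% for *GPM1*, so the order of these genes is uncertain. The replicate spread was small throughout, with coefficients of variation of 0.591% to 7.79% in the auxin-treated and 2.59% to 12.3% in the mock-treated cultures.

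The genes around this part of the pathway were read from 4 lists. The shift with total counts alone was much the same for them as for the 10 genes, so that small decreases shrink and small increases grow. The 6 genes of upper glycolysis phosphorylate glucose and prepare it for cleavage. All 6 were called as lower, as were 38.5% of all tested features, and their median log2 fold change was -0.65. The largest decreases were those of *HXK1* and *GLK1*, a hexokinase and the glucokinase that are repressed on glucose, at -1.83 and -1.81. *HXK2*, the hexokinase that predominates on glucose, fell by 0.49 on the log2 scale, and the values of *PGI1*, *PFK1* and *PFK2*, which encode phosphoglucose isomerase and the subunits of phosphofructokinase, lay between -0.71 and -0.52 (the highest edgeR adjusted p of the 6 was 4.1e-06). With total counts alone, *HXK2* was at -0.24, *PFK2* at -0.28, *PFK1* at -0.33 and *PGI1* at -0.47. All were still called as lower, as were 1072 of the 6397 tested features.

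The second list holds 6 minor homologues of the members. *PYK2*, the second pyruvate kinase gene, had 23.4 ± 0.375 CPM in the auxin-treated and 54.9 ± 2.27 CPM in the mock-treated cultures (SD, n = 3 each), and its log2 fold change was -1.23 (edgeR adjusted p = 3.5e-09). With total counts alone *PYK2* was at -0.99 and did not pass -1. *GPM2* fell by 1.48 on the log2 scale. Its level was far lower, at means of 0.668 CPM in the auxin-treated and 1.87 CPM in the mock-treated cultures. *GPM3* was not called, at -0.07 (edgeR adjusted p = 0.077), and with total counts alone it was called as higher, at 0.17 (edgeR adjusted p = 0.0017). *GPM2* and *GPM3* are related in sequence to *GPM1* but are not known to supply mutase activity. The enolase-related genes *ERR1*, *ERR2* and *ERR3* had at most 2 counts in any culture and were not tested.

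**Figure D4:**
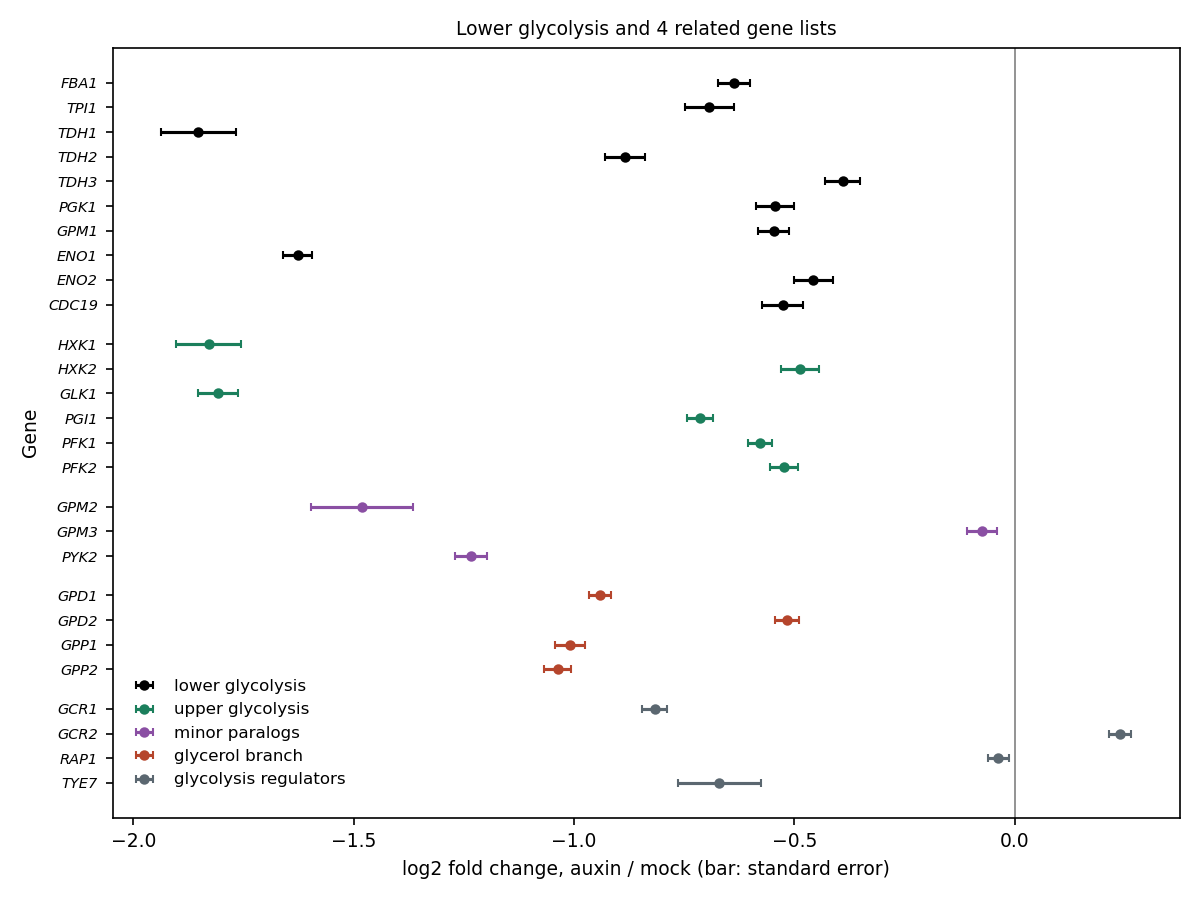
Log2 fold change of auxin-treated over mock-treated cultures (horizontal axis, bars: standard error) for the 10 genes of lower glycolysis and the tested genes of 4 related lists, by colour. Only *GCR2* lies above 0, at 0.24, and *RAP1* and *GPM3* lie closest to 0, and both were called as higher with total counts alone, at 0.21 and 0.17.

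The glycerol branch takes triose phosphate out of the pathway, through the glycerol phosphate dehydrogenases Gpd1 and Gpd2 and the phosphatases Gpp1 and Gpp2. All 4 of its genes were called as lower, as were 38.5% of all tested features. The median log2 fold change of the 4 was -0.97. *GPP1* had 841 ± 17.2 CPM in the auxin-treated and 1691 ± 67.6 CPM in the mock-treated cultures (SD, n = 3 each), and its log2 fold change was -1.01 (edgeR adjusted p = 6.7e-09). *GPD1*, *GPD2* and *GPP2* changed by -0.94, -0.52 and -1.04. With total counts alone *GPD2* was at -0.27, and neither *GPP1* nor *GPP2* passed -1, at -0.76 and -0.79.

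The regulators did not move together. *GCR1* had 82.1, 82.4 and 82.7 CPM in the auxin-treated cultures, against 143, 141 and 151 CPM in the mock-treated cultures, a log2 fold change of -0.82 (SE 0.03, edgeR adjusted p = 8.8e-09). *TYE7* fell by 0.67 on the log2 scale (SE 0.09, edgeR adjusted p = 0.00012), and was at -0.42 with total counts alone. *GCR2* rose by 0.24, or by 0.49 with total counts alone, with 97.0 ± 1.67 CPM in the auxin-treated and 82.2 ± 1.15 CPM in the mock-treated cultures (SD, n = 3 each, edgeR adjusted p = 1.3e-05). *RAP1* was not called, at -0.04 (edgeR adjusted p = 0.20), its groups overlapped, and with total counts alone it was called as higher, at 0.21 (edgeR adjusted p = 1.3e-05). Whether any of these mRNAs bears on the 10 genes was not tested.

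The 700 bases before each start codon of the 10 genes were searched on both strands. The spellings sought were ACCCANNCA, a core spelling of the Rap1 site, and CTTCC, the Gcr1 site. The Rap1 spelling was found upstream of 6 of the 10 genes (*FBA1*, *TDH3*, *PGK1*, *GPM1*, *ENO1* and *CDC19*) and of 8.25% of 5999 coding genes. The Gcr1 spelling was found upstream of 9 of the 10 and of 77.9% of all, so that it says little by itself. Both stood within 60 bases of each other upstream of *PGK1*, *GPM1*, *ENO1* and *CDC19*, and upstream of 2.25% of all coding genes. These 4 genes had log2 fold changes of -0.54, -0.55, -1.63 and -0.53, where those of all 10 ranged from -1.85 to -0.39. Whether the sites bear on the decreases was not tested. A longer spelling of the Rap1 site, tried first, was found upstream of *CDC19* alone among the 10, and of 1.18% of all. A match is a match of letters, a gene without one may hold a site of another spelling, and factor binding was not measured.

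The stretches that hold both sites are shown from 5′ to 3′ of the gene's strand, in R64, with the matches in capitals on either strand and with 35 bases on either side of the Rap1 match. They lie outside annotated genes, on chromosome III from 137239 to 137317 for *PGK1*, chromosome XI from 164736 to 164814 for *GPM1*, chromosome VII from 1000425 to 1000503 for *ENO1* and chromosome I from 71099 to 71177 for *CDC19*. The Rap1 match begins 472, 394, 467 and 652 bases before the start codon in these genes. The site of *GPM1* is followed by a Gcr1 match on the opposite strand, and that of *PGK1* by 3 Gcr1 matches on the same strand within 60 bases, the last of which is cut by the end of the stretch and left in lower case.
PGK1: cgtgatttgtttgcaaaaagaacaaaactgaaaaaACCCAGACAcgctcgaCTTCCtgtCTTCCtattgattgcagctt
GPM1: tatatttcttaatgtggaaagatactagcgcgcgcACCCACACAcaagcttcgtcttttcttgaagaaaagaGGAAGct
ENO1: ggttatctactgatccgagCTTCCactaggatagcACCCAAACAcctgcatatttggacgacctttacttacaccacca
CDC19: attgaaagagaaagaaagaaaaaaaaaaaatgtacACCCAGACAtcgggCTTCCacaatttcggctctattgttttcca

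The features whose pattern over the 6 cultures was most like the mean pattern of the 10 genes were sought among 1874 others with a mean of at least 100 CPM. They were *INO80*, *FAS1*, *EFT2*, *DPM1* and *RPL13B*, which encode a chromatin remodeller subunit, a fatty acid synthase subunit, an elongation factor, a dolichol phosphate mannose synthase and a ribosomal protein. Their Pearson correlations lay between 0.9993 and 0.9998. Each of the 10 genes had a correlation of 0.981 to 0.999 with their own mean. A correlation over 6 cultures in 2 groups mostly measures that a gene fell by more than its replicate spread, and so do these. The log2 fold changes of the 5 genes ranged from -1.02 for *RPL13B* to -0.31 for *INO80*. *EFT2* and *RPL13B* have near-identical paralogs and are uncertain for that reason.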

How the data were processed

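RNA-Seq counts of 3 auxin-treated and 3 mock-treated *RIO1-AID* cultures were used. The authors removed rRNA, made directional libraries, used Trimmomatic for trimming and STAR for alignment to R64, and deposited raw counts for each gene. The adaptors carried molecular identifiers, and the study's reporting summary mentions their use without saying how. The count totals are well above the mapped read pairs that the paper states per sample, and the sources used here leave unstated whether the counting followed a removal of duplicates, so that counts may include PCR copies. The annotation release is not given in the sources used here. Columns were assigned by name, in which a digit gives the biological repeat and a trailing a marks auxin. The reference annotation is also of R64.

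Features kept by filterByExpr were fitted in edgeR 4.0.16 under R 4.3.3, with TMM factors, treatment as the single term and a quasi-likelihood F test, and p-values were adjusted by Benjamini-Hochberg over all of them. Standard errors are the log2 fold change divided by the root of the F statistic. Their median was 0.04 over the 6397 tested features. Sums and shares were compared with exact permutation tests (scipy 1.17.1, Python 3.11.15). The test was first run on simulated counts. Replicates differed by more than counting error (chi-square per degree of freedom 6.22 to 34.7), so no intervals from counts alone are given.

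The members and lists were chosen with earlier results of these data known. The text names all members, the genes of 4 pathway lists, *RIO1* and the 5 features most like the members by Pearson correlation of log2(CPM + 0.5). The alternatives tried were scaling by total counts, by upper quartile or by RLE, TMM without the 10 genes, no filter, a minimum of 10 counts in every culture, DESeq2 1.42.0, a replicate block and leaving out each culture.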

Additional observations from a re-analysis of the deposited data

How the results depend on the processing

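All 10 genes were called as lower, and *TDH1* and *ENO1* also passed a log2 fold change of -1, under all 14 alternatives. With each culture left out in turn, the log2 fold change ranged from -1.96 to -1.78 for *TDH1*, from -1.66 to -1.61 for *ENO1* and from -0.42 to -0.36 for *TDH3*, and the ratio of the summed levels from 0.681 to 0.707. It was 0.825 with total counts alone. The directions of all tested features depend on the scaling. With TMM, 2462 were called as higher and 2465 as lower, and with total counts alone 4131 as higher and 1072 as lower. Among the genes of the 4 lists, for which the alternatives were chosen after seeing the data, *GPM3* and *RAP1*, which were not called with TMM, were called as higher with total counts alone, at 0.17 and 0.21 (edgeR adjusted p = 0.0017 and 1.3e-05), and *GPM3* was called as lower without mock replicate 3, at -0.11.

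Whether the replicate numbers pair the cultures is unclear. The deviations of same-numbered cultures from their group means correlated at 0.29, 0.02 and 0.44. Auxin replicates 1 and 3 correlated best with the mock culture of their own number, whereas auxin replicate 2 correlated best with mock replicate 1, at 0.26. With the number as a replicate block, 10 of the 10 genes and 5159 features were called, against 10 and 4927 without it. With 3 cultures a group, the exact tests cannot reach a p under 0.1.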

Other observations

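Genes with homologues in the same enzyme family were tested in 6 families of glycolysis. The gene with the highest level per coding length in the mock-treated cultures was *HXK2*, *PFK2*, *TDH3*, *GPM1*, *ENO2* or *CDC19*, and the log2 fold changes of these 6 lay between -0.55 and -0.39. Of the 9 other genes, 8 had a lower log2 fold change than the most abundant gene of their family. The difference was -1.34 for *HXK1*, -1.32 for *GLK1*, -0.49 for *TDH2*, -1.46 for *TDH1*, -0.93 for *GPM2*, -1.17 for *ENO1* and -0.71 for *PYK2* on the log2 scale. It was only -0.05 for *PFK1*, which encodes a subunit of the same enzyme as *PFK2* and had a similar level, and both fold changes had a standard error of 0.03. *GPM3* was the exception, at 0.47. *GPM2* and *GPM3* are grouped with *GPM1* by sequence only. The scaling between cultures cancels in such a difference. The pattern was noticed in these values and was not tested.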
